A study of Mus musculus with 6 samples.

Results

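The genes examined here were 10 integrin subunits that bind extracellular matrix, chosen by gene name: the alpha subunit genes Itga1, Itga2, Itga5, Itga8, Itga11 and Itgav and the beta subunit genes Itgb1, Itgb3, Itgb5 and Itgb8. They are 10 of the 26 integrin subunit genes and of the 55291 genes measured. All 10 were detected in every library and all 10 passed the filter on low counts. Ribosome-depleted, stranded bulk RNA-seq libraries, 1 for each mouse, were available for the dorsal skin of 3 TSK (tight skin) and 3 WT (wild-type littermate) C57BL/6 animals, whose backs had been shaved. TSK mice carry a duplication within Fbn1, the gene of the microfibril protein fibrillin 1, through the germ line and thus in all cells. The labels give an age between 6 and 8 weeks and female sex for every mouse, whereas the methods of the study describe males.

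Integrins are receptors made of 1 alpha and 1 beta chain that join the matrix outside a cell to the actin skeleton inside it. Itgb1 is the common partner of Itga1, Itga2 and Itga11, whose products are collagen receptors, and of Itga5 and Itga8, whose products bind ligands with the tripeptide arginine-glycine-aspartate (RGD). Itgav pairs with Itgb1, Itgb3, Itgb5, Itgb6 or Itgb8, and its dimers bind RGD ligands such as vitronectin, fibronectin, fibrillin 1 and the latent form of TGF-beta. In skin these receptors anchor fibroblasts, vessel cells and keratinocytes, and the Itgav dimers are known for releasing active TGF-beta from the matrix.

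The beta chains carry short cytoplasmic tails where talins and kindlins bind, often at a sequence called NPXY. The last 120 coding bases of each beta member, stop codon included, are shown because the 4 chains differ there. They were read from the principal transcript of each gene in GENCODE M21 on GRCm38 (mm10), and the capitals mark codons of an NPXY or NPXF sequence.
Itgb1: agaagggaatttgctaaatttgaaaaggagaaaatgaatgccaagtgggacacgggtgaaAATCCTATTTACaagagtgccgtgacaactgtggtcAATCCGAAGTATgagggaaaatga
Itgb3: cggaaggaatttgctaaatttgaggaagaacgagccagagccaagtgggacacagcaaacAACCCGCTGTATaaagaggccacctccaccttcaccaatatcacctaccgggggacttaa
Itgb5: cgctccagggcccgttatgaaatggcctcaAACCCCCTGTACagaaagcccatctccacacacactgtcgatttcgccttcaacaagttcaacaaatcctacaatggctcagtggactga
Itgb8: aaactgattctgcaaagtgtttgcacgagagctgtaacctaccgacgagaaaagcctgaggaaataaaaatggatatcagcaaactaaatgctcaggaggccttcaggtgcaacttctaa
The stretch of Itgb1 held 2 such sites, those of Itgb3 and Itgb5 held 1 each, and that of Itgb8 held 0. Related sequences without the proline were not marked, so these are not counts of talin or kindlin binding sites. The stretches lie in the last 2 exons of Itgb1 (chr8:128726133-128732088, plus strand), Itgb3 (chr11:104665579-104667145, plus strand) and Itgb5 (chr16:33947858-33948752, plus strand) and in the last exon of Itgb8 (chr12:119163117-119163236, minus strand). In global alignments, Itgb3 and Itgb5 were identical at 64 of 89 aligned bases (71.9%) and Itgb1 and Itgb3 at 73 of 119 (61.3%). The other pairs lay at 55.7% to 59.4%.

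Library totals ran from 17561453 to 19219814 estimated counts and overlapped between the groups. The TMM method, which sets scaling factors from the bulk of the genes, gave factors of 0.823 to 1.03 in WT and 1.06 to 1.13 in TSK. Without it, the midpoint of the log2 fold changes of the 19971 tested genes moved from -0.03 to 0.25, so a rise on the deposited CPM (counts per 1000000 of the library) is read against that shift. In bulk tissue, fewer cells of a type and less RNA per cell cannot be told apart. With all 6 libraries, edgeR called 542 of the tested genes higher in TSK. The count was 713 without WT 1, 226 without WT 2 and 45 without WT 3. It was 433, 321 and 322 without TSK 1, TSK 2 and TSK 3. Each such fit also has fewer libraries, and leaving out WT 3 lowered the count most.

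Of the 10 members, 1 rose and 0 fell in TSK skin at an adjusted p below 0.05 (edgeR's quasi-likelihood test, adjusted over all genes). The member that rose was Itgb3, the beta chain of the vitronectin receptor on endothelium, osteoclasts and other adherent cells. Over all tested genes, 2.71% rose and 0.681% fell by the same rule. Before adjustment, a p below 0.05 was reached by 4 members higher in TSK and 1 lower, beside 12.1% and 7.9% of all tested genes. DESeq2 also called 1 higher and 0 lower, against 5.5% of all genes called higher and 1.98% called lower. The median log2 fold change of the 10 members was 0.26, beside -0.03 over all tested genes, and it was 0.12 without TSK 3. On the deposited CPM, 6 members were higher in each TSK library than in any WT library, as were 29.1% of tested genes. After TMM scaling 3 members remained apart in that direction, where 14.1% of tested genes were, and 1 was apart in the other, where 10.6% of genes were. The members that remained apart were Itgb3, Itgb5 and Itga8, and Itgav lay lower.

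**Figure D1:**
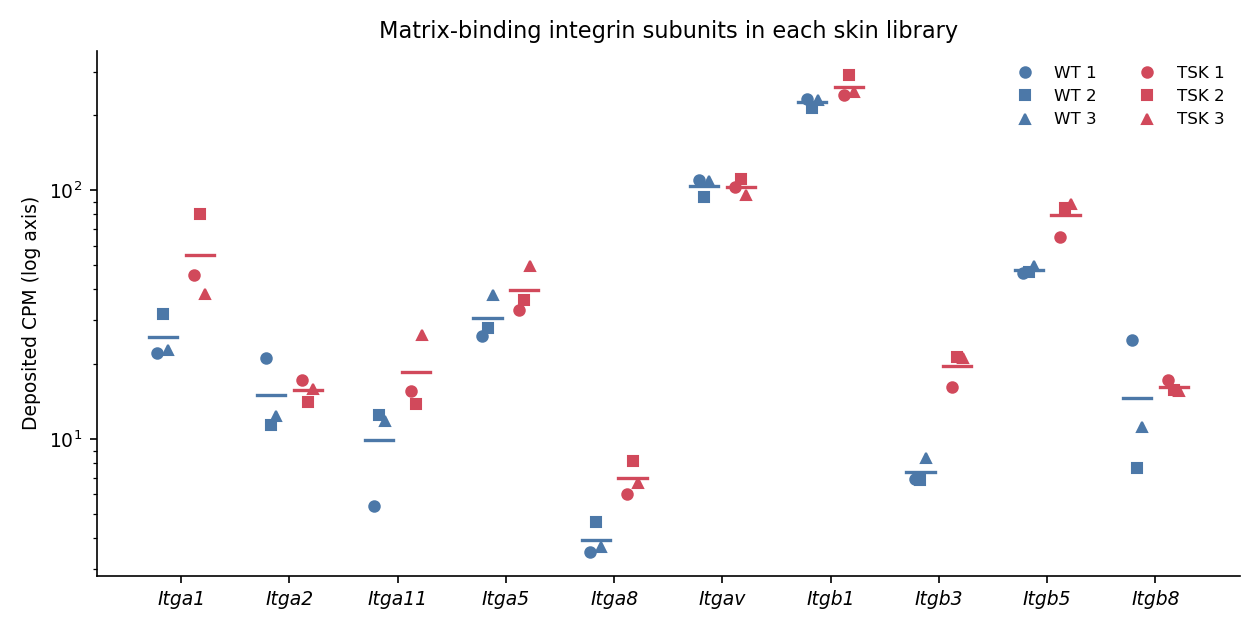
Deposited CPM on a log axis (vertical) for each of the 10 subunits (horizontal), with 1 point per library, WT in blue and TSK in red, and a line at each group mean. The 3 TSK points of Itgb3 lie between 16.2 and 21.4 CPM, above the 3 WT points at 6.89 to 8.38 CPM, while the points of Itgav, Itga2 and Itgb8 overlap.

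Itgb3 (chromosome 11, 104608000 to 104670476, plus strand) measured 6.92 (WT 1), 6.89 (WT 2) and 8.38 CPM (WT 3) and 16.2 (TSK 1), 21.4 (TSK 2) and 21.2 CPM (TSK 3). The lowest TSK library was thus well above the highest WT library, on means of 7.39 ± 0.854 and 19.6 ± 2.97 CPM (SD, n = 3), a ratio of 2.65. The TMM-scaled log2 fold change was 1.12 (adjusted p = 0.0171 in edgeR, SE 0.17), at the 96.3 percentile of all tested genes. These levels rest on 121 to 152 estimated counts in WT and 294 to 412 in TSK. Over 17 alternative fits the log2 fold change ran from 1.02 to 1.41, and 16 of the 17 kept the call. Without WT 3 the log2 fold change was 1.25 and the edgeR adjusted p was 0.0561. By the limits of the study, a fold above 2.5 with an adjusted p below 0.01, it was not called in the TMM edgeR fit or with DESeq2, and it was called with library size only (log2 fold change 1.41, adjusted p = 0.00384) and with limma-trend at a pseudocount of 0.1 (1.39, adjusted p = 0.00337).

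Itgb5, a beta chain that binds vitronectin, came next among the beta members. It measured 46.6 (WT 1), 46.9 (WT 2) and 49.8 CPM (WT 3) against 64.7 (TSK 1), 85.0 (TSK 2) and 88.4 CPM (TSK 3) (chromosome 16, 33829665 to 33949338, plus strand). WT libraries were close together and every TSK library stood above them. The log2 fold change was 0.44 (adjusted p = 0.146 in edgeR, SE 0.15), which did not pass. With library size as the only scaling it was 0.73 and passed (edgeR adjusted p = 0.0202), and by that fit 3 of the 10 members were called higher, Itga1, Itgb3 and Itgb5, where 8.44% of all genes were. On deposited CPM, limma-trend called 3 members higher at a pseudocount of 1, where 8.87% of all genes were, and 4 at a pseudocount of 0.1, where 8.82% were, the fourth being Itga8. With the replicate block 2 members were called higher, where 3.33% of all genes were.

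Itgb1, the most abundant member and the partner of most alpha chains, did not pass the test. Its values were 233 (WT 1), 214 (WT 2) and 230 CPM (WT 3) and 241 (TSK 1), 292 (TSK 2) and 248 CPM (TSK 3) (chromosome 8, 128685654 to 128733200, plus strand). On this scale the lowest TSK library exceeded the highest WT library, and after TMM scaling the groups overlapped. The log2 fold change was -0.07 with TMM (adjusted p = 0.824 in edgeR, SE 0.14) and 0.21 with library size only, so its sign follows the scaling.

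Itgb8, whose Itgav dimer activates latent TGF-beta, measured 25.1 (WT 1), 7.67 (WT 2) and 11.2 CPM (WT 3) and 17.3 (TSK 1), 15.7 (TSK 2) and 15.6 CPM (TSK 3) (chromosome 12, 119158022 to 119238802, minus strand). The TSK libraries fell within the WT range, which WT 1 widened. Its log2 fold change was -0.08 (adjusted p = 0.925 in edgeR, SE 0.31), and 0.45 without WT 1 (adjusted p = 0.184). The sign also turned under library size only, where it was 0.15.

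Itgav, the alpha chain that Itgb3, Itgb5 and Itgb8 share, had means of 105 ± 9.32 and 103 ± 7.81 CPM (SD, n = 3). It measured 110 (WT 1), 93.8 (WT 2) and 109 CPM (WT 3) and 103 (TSK 1), 111 (TSK 2) and 95.4 CPM (TSK 3) (chromosome 2, 83724397 to 83806916, plus strand). The groups overlapped on this scale. After TMM scaling all TSK libraries were below all WT libraries, with a log2 fold change of -0.30 (adjusted p = 0.243 in edgeR, SE 0.13) that did not pass. With library size only the value was -0.02.

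Because a ratio of 2 genes within a library does not depend on how libraries are scaled, beta chains were also set against Itgav. Each level was first divided by the length of the longest protein-coding transcript, and the ratios are a description without a test. Itgb3 was 0.0764, 0.0895 and 0.0934 of the Itgav level in the WT libraries and 0.192, 0.235 and 0.271 of it in the TSK libraries. The ranges did not overlap, and the mean log2 ratio differed by 1.42. Itgb5 was 0.907, 1.07 and 0.979 of Itgav in WT and 1.35, 1.65 and 1.99 of it in TSK, so that per kb Itgb5 exceeded Itgav in every TSK library. On deposited CPM, not divided by length, Itgb5 was below Itgav in every TSK library. Itgb1 was 3.90, 4.21 and 3.88 times Itgav in the WT libraries and 4.32, 4.86 and 4.81 times Itgav in the TSK libraries, a mean log2 difference of 0.22. The ratios of Itgb8 and of Itgb6, an epithelial partner of Itgav, overlapped between groups. The ratio of Itgb3 to Itgb5 was 0.0833 to 0.0954 in WT and 0.136 to 0.143 in TSK, again without overlap. Set against Itgb1, the mean log2 ratio of Itga1 differed by 0.84 and that of Itga8 by 0.61, both without overlap, and the ratios of Itga2, Itga5 and Itga11 overlapped. Of all tested genes, 32.1% were higher without overlap in their ratio to Itgav and 14.8% in their ratio to Itgb1, so a higher ratio is common on these scales.

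**Figure D2:**
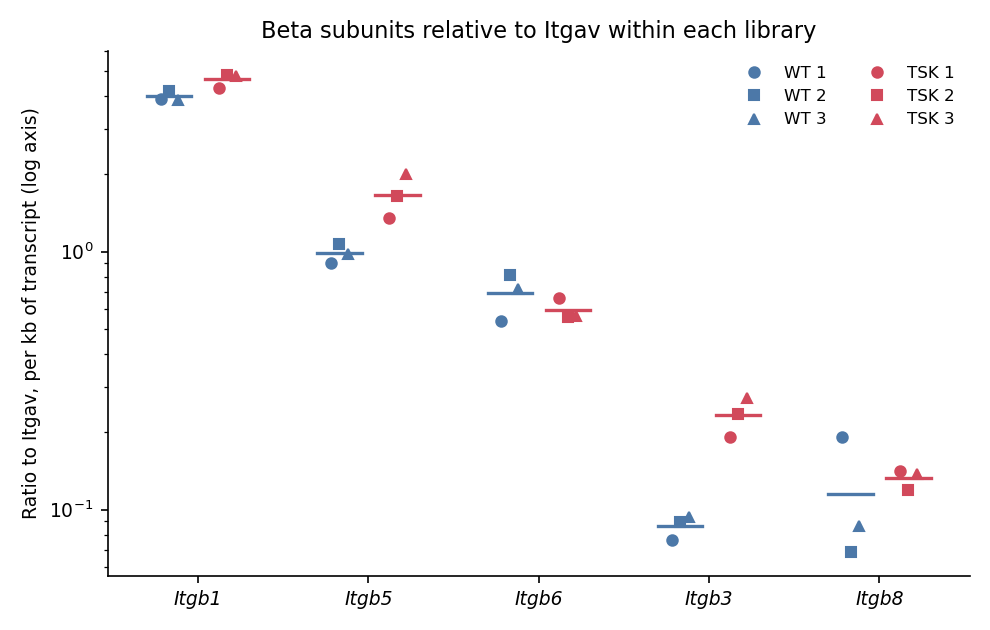
Ratio of each beta subunit to Itgav within a library, per kb of transcript on a log axis (vertical), for 5 beta subunits (horizontal), with WT in blue, TSK in red and lines at group means. The mean ratio of Itgb3 is 0.0864 in WT and 0.233 in TSK and that of Itgb5 0.987 and 1.66, while the points of Itgb6 and Itgb8 overlap.

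Itga1, a collagen receptor chain of vessel walls and fibroblasts, had means of 25.7 ± 5.39 CPM in WT and 54.8 ± 22.4 CPM in TSK (SD, n = 3). It measured 22.2 (WT 1), 31.9 (WT 2) and 22.9 CPM (WT 3) and 45.8 (TSK 1), 80.3 (TSK 2) and 38.3 CPM (TSK 3) (chromosome 13, 114953096 to 115101964, minus strand). TSK 2 was far above the other libraries, and after TMM scaling TSK 3 fell below WT 2. Its log2 fold change was 0.79 (adjusted p = 0.191 in edgeR, SE 0.30), and without TSK 2 it was 0.42. It was called in 4 of 17 alternative fits, namely library size only (1.09, adjusted p = 0.0355), both limma-trend fits and, with TMM scaling, the replicate block (0.76, adjusted p = 0.0422). Pelo and Gm49395 lie on the same strand within Itga1, and reads there may be divided among them.

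Itga11, the fibroblast receptor for fibrillar collagen, measured 5.37 (WT 1), 12.5 (WT 2) and 11.9 CPM (WT 3) and 15.6 (TSK 1), 13.9 (TSK 2) and 26.4 CPM (TSK 3) (chromosome 9, 62677826 to 62783982, plus strand). WT 1 was low and TSK 3 was high, and TSK 2 was only slightly above WT 2. The log2 fold change of 0.58 (adjusted p = 0.44 in edgeR, SE 0.38) did not pass under any of the 17 alternative fits, where it ran from 0.26 to 0.94. It was 0.26 without WT 1 and 0.27 without TSK 3.

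Itga2, the collagen receptor chain of keratinocytes and platelets, measured 21.1 (WT 1), 11.4 (WT 2) and 12.4 CPM (WT 3) and 17.3 (TSK 1), 14.2 (TSK 2) and 15.9 CPM (TSK 3) (chromosome 13, 114833081 to 114932100, minus strand). WT 1 was the highest of all 6 libraries and the groups overlapped. The log2 fold change was -0.18 (adjusted p = 0.659 in edgeR, SE 0.19), and it was 0.064 without WT 1 and 0.074 with library size only. WT 1 was also the highest library for basal keratinocyte markers, at a summed 7468 CPM against 3671 to 5923 CPM in the other libraries, and the part of this in the Itga2 and Itgb8 values was not tested.

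Itga5, the fibronectin receptor chain, measured 26.0 (WT 1), 28.1 (WT 2) and 37.9 CPM (WT 3) and 32.9 (TSK 1), 36.2 (TSK 2) and 49.7 CPM (TSK 3) (chromosome 15, 103344286 to 103366763, minus strand). The groups overlapped, with a log2 fold change of 0.07 (adjusted p = 0.888 in edgeR, SE 0.21). Its sign turned without WT 1 (-0.08) and without TSK 3 (-0.10).

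Itga8, a chain found on smooth muscle and fibroblasts that binds nephronectin, was the lowest of the members. It measured 3.53 (WT 1), 4.63 (WT 2) and 3.68 CPM (WT 3) and 6.05 (TSK 1), 8.17 (TSK 2) and 6.68 CPM (TSK 3) (chromosome 2, 12106632 to 12301922, minus strand). All TSK libraries exceeded all WT libraries on both scales, at 62 to 87 counts in WT and 110 to 157 in TSK. The log2 fold change was 0.52 (adjusted p = 0.244 in edgeR, SE 0.23), which did not pass. It was called in 1 of 17 alternative fits, limma-trend at a pseudocount of 0.1 (0.80, adjusted p = 0.0482). Gm37701 lies within Itga8 on the same strand and held a mean of 85.2 counts, so reads may be divided between the 2 genes.

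To compare levels between genes, CPM was divided by the length of each gene's longest protein-coding transcript in kb. In WT skin the order of mean level was Itgb1, Itgav, Itgb5, Itga5, Itga1, Itga2, Itga11, Itgb8, Itgb3 and Itga8, from 59.1 ± 2.70 to 0.679 ± 0.103 CPM per kb (SD, n = 3). Itgb1 was above Itgav at 14.8 ± 1.32 in all 3 libraries, whereas Itgav and Itgb5 overlapped, as did each neighbouring pair from Itga1 to Itgb3. In TSK skin the order was Itgb1, Itgb5, Itgav, Itga5, Itga1, Itga11, Itgb3, Itga2, Itgb8 and Itga8. There Itgb5 stood above Itgav without overlap, at 24.2 ± 3.90 against 14.6 ± 1.11 CPM per kb, and Itgb3 stood above Itga2, at 3.39 ± 0.514 against 2.22 ± 0.222. The ranges of Itga1 and Itga11, of Itga11 and Itgb3, and of Itga2 and Itgb8 overlapped, although Itga2 was above Itgb8 within each of the 3 libraries. Itgb1 made up 55.9% of the summed per-kb level of the members in WT and 51.1% in TSK, and Itgb3 1.21% and 2.53%.

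The other 16 integrin subunits were read from the same fit. Of 15 that passed the filter, 0 rose and 0 fell (edgeR), 3 higher and 4 lower had a p below 0.05 before adjustment, and DESeq2 called 0 higher and 1 lower. Before adjustment 12.1% of all genes were higher and 7.9% lower by that rule, and DESeq2 called 5.5% and 1.98%. Their median log2 fold change was 0.09. The one called by DESeq2 was Itga7, the laminin receptor chain of muscle, at 76.5 ± 8.55 CPM in WT and 61.4 ± 9.14 in TSK (log2 fold change -0.59, edgeR adjusted p = 0.0667, DESeq2 adjusted p = 0.0196). With library size only Itga7 was at -0.32 (edgeR adjusted p = 0.246). In edgeR, 1 of these subunits was called lower with upper quartile normalization, without the low-count filter, without WT 1 and without TSK 1.

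Among laminin receptors of epithelium, Itga3 had a log2 fold change of -0.61 (edgeR adjusted p = 0.112), Itga6 one of -0.26 and Itgb4 one of -0.47. Itgb6 stood at -0.52 (edgeR adjusted p = 0.186). With library size only, Itga3, Itga6, Itgb4 and Itgb6 were at -0.35, -0.01, -0.22 and -0.22. Itga9, a receptor chain for tenascin and other ligands, was at 20.1 ± 3.29 CPM in WT and 39.1 ± 8.01 CPM in TSK, a log2 fold change of 0.65 that did not pass (edgeR adjusted p = 0.137) and that passed with library size only. Itga10, a collagen receptor chain of cartilage, was at 0.35 and Itga4, a leukocyte receptor chain for fibronectin, at -0.19, or 0.08 with library size only. The leukocyte subunits gave log2 fold changes of 1.20 for Itgb7, 0.86 for Itgae, 0.46 for Itgam, 0.37 for Itgb2, 0.11 for Itgax and 0.09 for Itgal, none of which passed in edgeR. Itga2b, which pairs with Itgb3 on platelets, was at 2.07 to 2.92 CPM in WT and 2.64 to 3.88 CPM in TSK, which overlapped (log2 fold change 0.05, edgeR adjusted p = 0.933). Itgad was below 1 CPM in every library and was not tested.

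**Figure D3:**
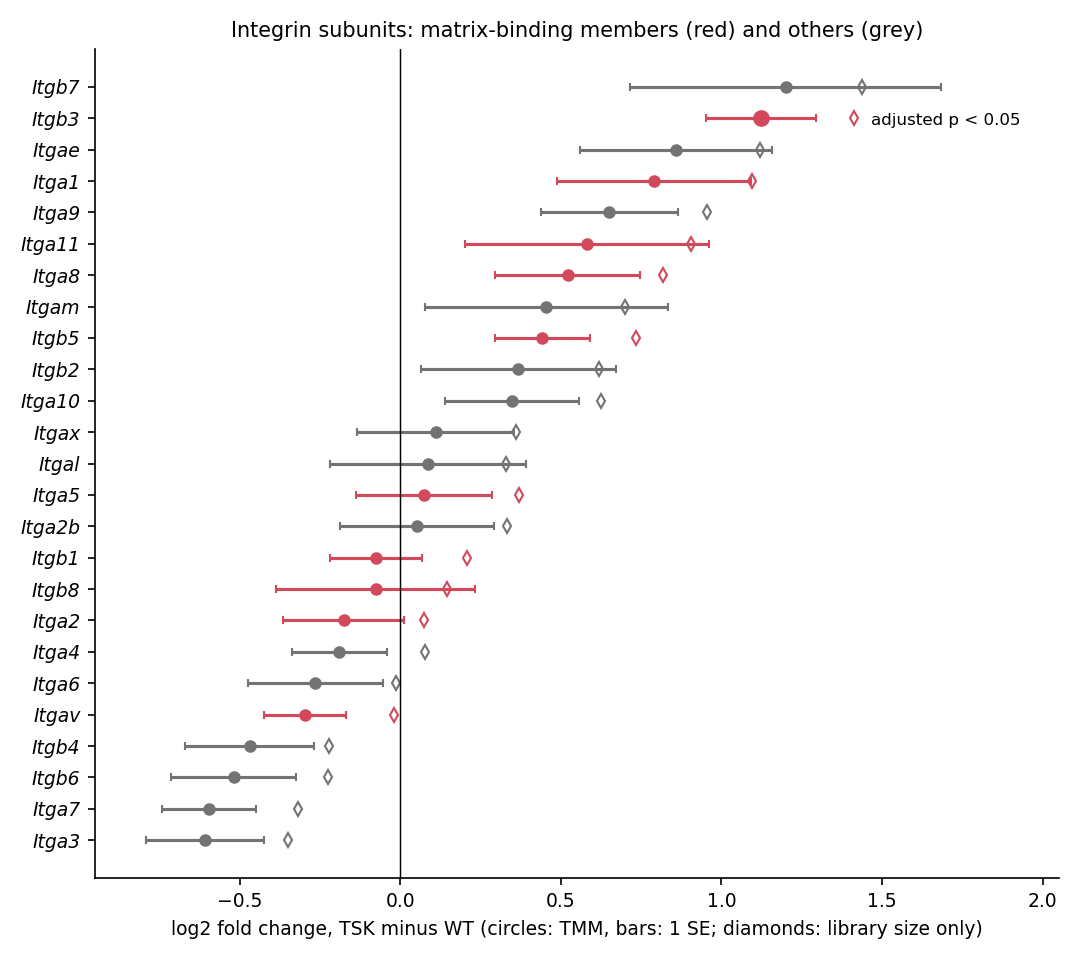
Log2 fold change (TSK minus WT, horizontal) of the 25 tested integrin subunits (vertical, sorted), members in red and other subunits in grey, as circles with bars of 1 SE for TMM scaling and open diamonds for library size only. Itgb3 at 1.12 is the subunit past an adjusted p of 0.05, and the diamonds lie to the right of the circles throughout.

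RGD ligands were examined as partners of the Itgav, Itga5 and Itga8 dimers. In the list of RGD and other matrix ligands, 3 of 15 rose, 1 fell and 11 did not pass (edgeR), with a median log2 fold change of 0.37. Before adjustment 6 higher and 2 lower had a p below 0.05, DESeq2 called 4 higher and 2 lower, and 5 were called higher with library size only. Over all genes these shares were 2.71% higher and 0.681% lower in edgeR, 12.1% and 7.9% before adjustment, 5.5% and 1.98% in DESeq2, and 8.44% higher with library size only. Of the 15, 11 held at least 1 RGD in the reading frame examined. The 4 that passed all did, and their RGD codons are shown in capitals because RGD is the tripeptide that these receptors recognise.
Fn1, first RGD: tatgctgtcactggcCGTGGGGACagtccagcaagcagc
Fn1, second RGD: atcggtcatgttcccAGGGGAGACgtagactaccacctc
Fbn1: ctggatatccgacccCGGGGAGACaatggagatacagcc
Mfap5: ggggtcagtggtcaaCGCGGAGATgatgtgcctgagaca
Spp1: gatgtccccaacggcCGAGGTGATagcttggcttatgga
The 39-base stretches are coding and lie at chr1:71606731-71606769 and chr1:71597428-71597466 for Fn1 (minus strand), chr2:125345958-125345996 for Fbn1 (minus strand), chr6:122515362-122520595 across an intron for Mfap5 (plus strand) and chr5:104439466-104439504 for Spp1 (plus strand), all in GRCm38. The Fbn1 stretch is of the reference gene, in exon 37 of 65. The exons that the study gives as duplicated in TSK include this number, and copies in the mutant allele were not examined.

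Fn1, which encodes fibronectin, measured 264 (WT 1), 289 (WT 2) and 281 CPM (WT 3) and 896 (TSK 1), 957 (TSK 2) and 1624 CPM (TSK 3). Every TSK library was over 3 times any WT library, and the log2 fold change was 1.76 (adjusted p = 0.0148 in edgeR, SE 0.26). Fbn1, the mutated gene, measured 262 to 289 CPM in WT and 1538 to 2284 CPM in TSK (2.54, edgeR adjusted p = 0.00327). Reads of its duplicated exons were not separated from the rest. Mfap5, a microfibril protein that binds fibrillin, had means of 11.8 ± 1.27 CPM in WT and 89.1 ± 23.0 CPM in TSK (SD, n = 3, log2 fold change 2.61, edgeR adjusted p = 0.00327). Without WT 3 only Fbn1 and Mfap5 of this list passed, with edgeR adjusted p of 0.0831 for Fn1 and 0.0613 for Spp1. Leaving out any other single library gave 3 of the list higher and 1 lower.

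Spp1, which encodes osteopontin, was the ligand that fell. It measured 8.77 (WT 1), 4.40 (WT 2) and 5.83 CPM (WT 3) and 2.25 (TSK 1), 1.94 (TSK 2) and 2.60 CPM (TSK 3), with no overlap, and the log2 fold change was -1.74 (adjusted p = 0.0123 in edgeR, SE 0.24). Npnt, the nephronectin gene, was at 59.9 ± 9.77 and 37.3 ± 12.1 CPM without overlap (-0.95, edgeR adjusted p = 0.0645). It passed with DESeq2 (adjusted p = 0.00368), as did Mfge8, a secreted RGD ligand (log2 fold change 0.54, adjusted p = 0.0923 in edgeR and 0.0472 in DESeq2). Vtn, the vitronectin gene, was at 3.36 ± 1.35 and 7.99 ± 0.993 CPM (0.93, edgeR adjusted p = 0.167). Tgfb1 and Tgfb3, whose latent forms carry an RGD that Itgav dimers bind, had log2 fold changes of 0.47 (edgeR adjusted p = 0.211) and -0.09 (0.71).

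Collagen genes, the ligands of Itga1, Itga2 and Itga11 with Itgb1, were higher in each TSK library than in any WT library on deposited CPM in 8 of 8 cases, and after TMM scaling in 5 of 8, beside 29.1% and 14.1% of all tested genes. With edgeR 0 of 8 rose and 0 fell, 5 had an unadjusted p below 0.05 (12.1% of all genes), and DESeq2 called 5 higher (5.5% of all genes). The edgeR count was 6 of 8 with library size only, where 8.44% of all genes were called higher, and 4 of 8 without the low-count filter, where 2.99% were. The median log2 fold change was 0.93. Col1a1 measured 2511 to 3613 CPM in WT and 8302 to 22614 CPM in TSK (1.84, edgeR adjusted p = 0.0654), the highest in TSK 3. Col3a1 measured 2267 to 3748 and 7086 to 13646 CPM (1.24, edgeR adjusted p = 0.119). TSK 3 was also the library with the highest Itga5, Itga11 and Itgb5.

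Of 24 cytoplasmic adhesion partners, 2 rose and 0 fell (edgeR), 6 higher and 2 lower had a p below 0.05 before adjustment, and DESeq2 called 4 higher and 0 lower. The median log2 fold change was 0.14. Lims2, an adaptor that binds integrin-linked kinase, measured 10.3 (WT 1), 12.6 (WT 2) and 10.1 CPM (WT 3) and 23.3 (TSK 1), 38.7 (TSK 2) and 35.2 CPM (TSK 3). Its libraries did not overlap, and the log2 fold change was 1.27 (adjusted p = 0.0214 in edgeR, SE 0.22). Tns2, a tensin that binds beta tails, measured 51.8, 51.1 and 45.9 CPM in WT and 92.4, 135 and 130 CPM in TSK (0.98, SE 0.16, edgeR adjusted p = 0.0202). Neither passed without TSK 2 or TSK 3, or without WT 3. Of the other proteins that bind beta tails, the 2 talins, the 3 kindlins (Fermt1 to Fermt3), Tns1, Tns3 and Flna did not pass, at log2 fold changes from -0.42 for Tln2 to 0.52 for Tns1. Flna was at 0.51 and Parva, a parvin, at 0.62, and both were called by DESeq2 (adjusted p = 0.0019 and 0.012). With library size only and with both limma-trend fits, 6 partners were called higher. The shares of all genes higher by these rules were 2.71% in edgeR, 12.1% before adjustment, 5.5% in DESeq2 and 8.44% to 8.87% in the last 3 fits. The shares lower were 0.681% in edgeR, 7.9% before adjustment and 1.98% in DESeq2.

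**Figure D4:**
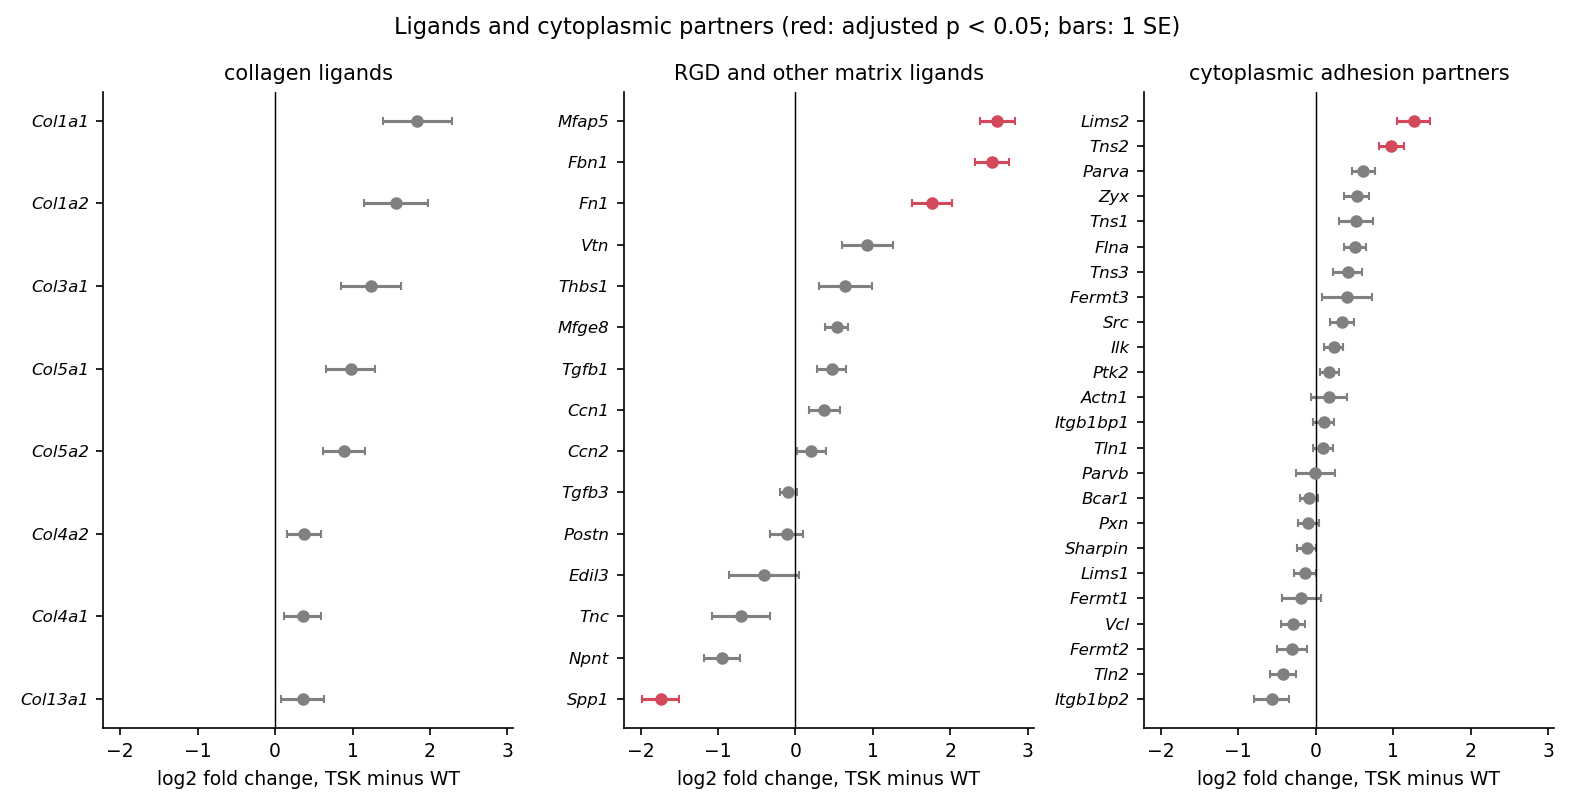
Log2 fold change (TSK minus WT, horizontal) with bars of 1 SE for collagen ligands (left), RGD and other matrix ligands (centre) and cytoplasmic adhesion partners (right), with genes past an adjusted p of 0.05 in red. Mfap5, Fbn1 and Fn1 lie at 1.76 to 2.61 and Spp1 at -1.74, and among the partners Lims2 and Tns2 are the genes in red.

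Markers of cell types that could carry these receptors were counted by the same test, by which 2.71% of all genes rose and 0.681% fell. Before adjustment the shares were 12.1% and 7.9%, and in DESeq2 5.5% and 1.98%. Summed fibroblast markers ran from 504 to 876 CPM in WT and from 1059 to 1893 CPM in TSK, and 4 of 9 rose (Dpt, Pi16, Dpp4 and Loxl1), with 5 higher before adjustment and 5 in DESeq2. Endothelial markers summed to 150 to 176 and 266 to 441 CPM, with 2 of 7 higher (Tek and Vwf), 6 before adjustment and 3 in DESeq2. Smooth muscle and pericyte markers, mostly Des, which skeletal muscle also expresses, summed to 2065 to 2452 and 1779 to 2102 CPM, with 1 of 9 higher (Myh11). Without Des the sum was 313 to 385 CPM in WT and 559 to 737 CPM in TSK. Of the 9 with Des, 6 were higher and 1, Des, was lower at an unadjusted p below 0.05, and DESeq2 called 5 higher and Des lower. Hair follicle markers summed to 6.51 to 12.8 and 34.1 to 41.7 CPM, with 5 of 6 tested higher (Krt25, Krt71, Krt27, Dlx3 and Lef1), 5 before adjustment and 4 in DESeq2. Adipocyte markers summed to 83.2 to 126 and 334 to 1709 CPM, with the top value in TSK 2, and 3 of 6 were higher (Lep, Plin1 and Cfd), 6 before adjustment and 6 in DESeq2. TSK 2 was also highest for the endothelial markers and for Itga1, Itga8, Itgav, Itgb1 and Itgb3 on deposited CPM. Without WT 3, only Dpp4 of the 15 marker genes called in all lists passed. Marker calls without each other library are not given here.

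Among the remaining lists, skeletal muscle markers summed to 135930 to 196137 CPM in WT and 117874 to 132731 CPM in TSK, and macrophage markers to 136 to 211 and 244 to 693 CPM. Basal keratinocyte markers summed to 3816 to 7468 and 3671 to 5923 CPM. In these 3 lists edgeR called 0 genes, whereas at an unadjusted p below 0.05 it gave 4 muscle genes lower, 4 macrophage genes higher and 0 keratinocyte genes. DESeq2 called 5 muscle genes lower, 2 macrophage genes higher and 0 keratinocyte genes. Over all genes, 12.1% were higher and 7.9% lower before adjustment, and DESeq2 called 5.5% higher and 1.98% lower. The part of these marker differences in the integrin values was not tested. The most abundant genes of these lists were Ttn and Myh4 for muscle (log2 fold changes of -0.74 and -1.09), Mrc1 and Csf1r for macrophages (1.16 and 1.06) and Krt5 and Krt15 for keratinocytes (-0.60 and -0.30). Platelet markers, which bear on Itgb3, summed to 2.29 to 3.80 CPM in WT and 3.31 to 5.41 CPM in TSK with 0 of 1 tested called. The 1 tested was Itga2b, the integrin subunit already given above. Gp9 and Ppbp were below 1 CPM in every library.

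Each member was also set against the mean log2 CPM of the 9 fibroblast markers within its library, of which 4 rose and 5 did not pass. That mean was 5.13 in WT and 6.59 in TSK, a difference of 1.46, so a gene with equal CPM in both groups lies lower by that amount on this scale. Itgb3 lay at -2.01 (WT 1), -2.60 (WT 2) and -2.14 (WT 3) beside -2.17 (TSK 1), -2.10 (TSK 2) and -2.66 (TSK 3), a difference of -0.06 (exact permutation test, two-sided, p = 0.6). The values of the groups overlapped, as did those of Itga1 (-0.42), Itga11 (-0.52) and Itgb8 (-1.14, or -0.50 without WT 1). Itga2, Itga5, Itga8, Itgav, Itgb1 and Itgb5 were lower relative to the markers in every TSK library than in any WT library, by 0.64 for Itga8 to 1.48 for Itgav on the log2 scale. The same held for 73.3% of all tested genes, so these 6 of 10 members do not stand apart from other genes. For each of these the exact permutation p was 0.1, the smallest that 3 mice against 3 can give, so none could pass 0.05. Against Pdgfra alone, a receptor of most fibroblasts, Itgb3 was higher in TSK by 0.58 (exact permutation p = 0.2) and Itga1 and Itga11 were at 0.21 and 0.12, so these signs turned with the markers used.

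**Figure D5:**
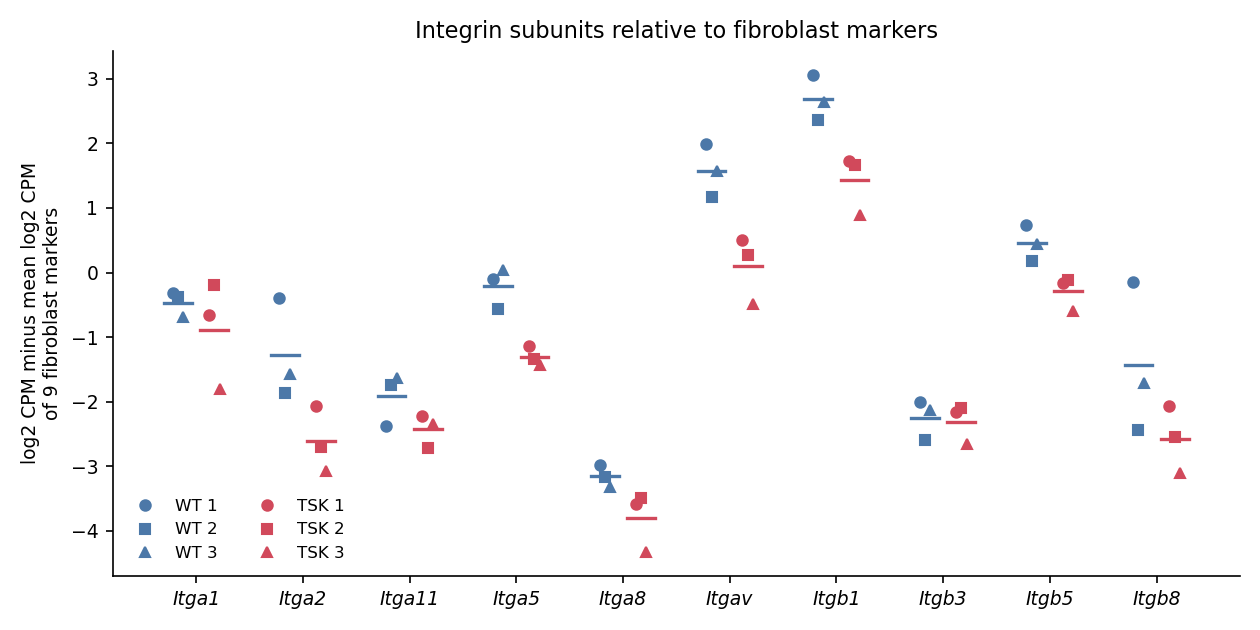
Log2 CPM of each subunit minus the mean log2 CPM of 9 fibroblast markers in the same library (vertical) for the 10 subunits (horizontal), WT in blue and TSK in red, with lines at group means. Itgb3 overlaps between groups at a difference of -0.06, whereas Itgav lies lower in all 3 TSK libraries, by 1.48, beside a difference of 1.46 in the marker mean itself.

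The genes whose levels over the 6 libraries were most like those of Itgb3 were Calu, a calcium-binding protein of the secretory pathway, Dnajc10, a disulfide reductase of the endoplasmic reticulum, and Gjc1, a connexin. Their Pearson correlations with Itgb3 on TMM log2 CPM were 0.998, 0.998 and 0.996 over 6 libraries, the highest among 12016 genes with a mean of at least 5 CPM. As 213 of these genes had a correlation above 0.95 and all share the same 6 libraries and the same group difference, the order among them is a description only.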

How the data were processed

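Reads were single-end from stranded, ribosome-depleted total RNA libraries, aligned by the authors with STAR to mm10 and quantified in Partek Flow 11.0. A count table and a CPM table were used as deposited. The table of estimated counts, named raw by the authors, held 43.3% to 45.4% whole values among non-zero values (within 0.001) and was rounded. The deposited CPM table was each count scaled to 1000000 per library by the authors. Groups were taken from the labels. Whether counting used strand is not given in the sources used here.

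The test was edgeR 4.0.16 (quasi-likelihood, TMM, filterByExpr, R 4.3.3) over 19971 genes with Benjamini-Hochberg adjustment, called at 0.05. It had been planned for raw counts. DESeq2 1.42.0 and limma 3.58.1 were alternatives. CPM and ratios are given as mean ± SD, and SE was derived from each fold change and its F value. The rule for named genes took every member, the tested integrin subunits, the genes of each list past 0.05 or, where there were none, the 2 most abundant, and the 3 genes most like Itgb3. Other genes named for their role (Npnt, Vtn, Tgfb1, Tgfb3, Mfge8, Tln2, Tns1) or from DESeq2 were chosen after their values were seen. The members and lists were chosen with earlier results of these data known. Sequences and lengths are from GENCODE M21. The table gives gene ends 1 base past those of GENCODE, and they were corrected. The scripts were tested on simulated data. Libraries of a group differed beyond counting noise (chi-square of at least 8.87 per degree of freedom), so each was counted. Whether replicate numbers paired the mice is not known, and the main test did not use them as pairs. Coding bases were shown because proteins were not used here. The results of 1 marker list are not reported here.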

Additional observations from a re-analysis of the deposited data

How the results depend on the processing

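Of 170 alternative values of single members, 146 kept direction and call, 8 gained a call, 1 lost it and 15 changed sign. The count of members higher in TSK (1) was 3 with library size only and with limma-trend on deposited CPM at a pseudocount of 1, 4 at a pseudocount of 0.1, 2 with the replicate block (Itga1 and Itgb3), 0 at the thresholds of the study in the TMM edgeR fit (but 1, Itgb3, at those thresholds with library size only or limma-trend at 0.1), and 0 to 1 without 1 library (0 without WT 3). Over all genes, 2.71% were called higher, and 8.44% with library size only, 8.87% and 8.82% with limma-trend, and 3.33% with the block. The median (0.26) was 0.55, 0.52 and 0.54 in the first 3 of these, where the median of all genes was also raised, and 0.12 to 0.39 without 1 library. No member was called lower in any fit. The signs of Itga2, Itgb1 and Itgb8 turned with library size only (0.074, 0.21 and 0.15), with limma-trend at a pseudocount of 1 (0.11, 0.20 and 0.29) and at 0.1 (0.12, 0.20 and 0.32). Itgb8 was 0.024 with limma-voom and 0.031 with the replicate block. Leaving out 1 library gave -0.28 to 0.064 for Itga2, -0.10 to 0.28 for Itga5 and -0.33 to 0.45 for Itgb8. Relative to Pdgfra alone Itga1, Itga11 and Itgb3 were at 0.21, 0.12 and 0.58, and against all markers leaving out 1 library gave -0.24 to 0.11 for Itgb3 (0.059 without WT 1), -0.77 to 0.036 for Itga1, -0.74 to -0.37 for Itga11, -0.80 to -0.38 for Itga8 and -1.64 to -0.50 for Itgb8. The cause of these shifts was not tested. Deviations of libraries with a common number correlated at 0.0112, 0.167 and -0.0938. Such correlations cannot show whether mice were paired, so the replicate block stands as an alternative only.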
